A study of Homo sapiens with 8 samples.

Results

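The interferon response genes described here were 9 genes fixed by name: the transcription factors IRF1, IRF9 and STAT2 and the effectors ISG15, IFIT1, IFIT2, IFIT3, OAS1 and MX1. Every H3K27ac peak that overlapped the GENCODE gene body of one of them, widened by 20 kb on either side, was taken, whatever its value. The genes themselves were chosen with earlier results of these data known. The peaks of the 6 libraries merged into 54 intervals in these neighbourhoods, of 143733 intervals in all. H3K27ac was profiled by ChIP-seq in HCEC-1CT, a human colonic epithelial line kept growing by CDK4 and telomerase, in 3 WT libraries and 3 libraries labelled CBP KO, here called CREBBP-KO. The WT cells were the parental line, which carries an inducible Cas9, and the CREBBP-KO cells descended from it after guide RNAs against CREBBP, the gene of a histone acetyltransferase. For this assay the study's methods call the CREBBP-KO cells monoclonal, whereas its account of how the lines were made speaks of pooling several clones per target, with a matched parental pool. Which of these went into the libraries, and whether the 3 libraries of a genotype came from separate cultures, was not given in the sources used here. The labels name no interferon treatment for either group.

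Type I interferons bind IFNAR1 and IFNAR2 and activate the kinases JAK1 and TYK2, which lead to the phosphorylation of STAT2. STAT2 and IRF9 are subunits of ISGF3, a complex that binds the interferon-stimulated response element (ISRE) in the promoters of antiviral genes. Type II interferon acts through GAS elements, and IRF1 is the best known of their targets. H3K27ac marks active promoters and enhancers, and CREBBP and its paralogue EP300 deposit it.

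The promoter sequences were looked at first, because both elements can be read in them. RefSeq (GRCh38.p14) promoter windows of 300 bases, which run from 250 bases before a start to 50 after it, were matched by symbol for 8 of the 9 genes and gave 11 windows, since IFIT3 and MX1 have several starts. The ISRE core was searched as GAAANNGAAA on both strands and GAS as TTCNNNGAA, which reads alike on both strands, and the 2 searches could overlap. The ISRE core was in 6 of the 11 windows and in 4 of the 8 genes, while 3.57% of 35116 windows in the table held it. GAS was in 4 windows of 4 genes, against 7.66% of all windows. These matches describe letters and do not show that a factor was bound.

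The stretches before the start of ISG15, IFIT3 and IFIT1 are shown for their paired ISRE cores, and that of IRF1 for its GAS, with matches in capitals, 5′ to 3′ along the gene and without annotated untranslated bases. They lie at chr1:1013247-1013496 (ISG15, plus strand), chr10:89327747-89327940 (IFIT3, plus strand), chr10:89392373-89392545 (IFIT1, plus strand) and chr5:132490778-132491023 (IRF1, minus strand).
ISG15: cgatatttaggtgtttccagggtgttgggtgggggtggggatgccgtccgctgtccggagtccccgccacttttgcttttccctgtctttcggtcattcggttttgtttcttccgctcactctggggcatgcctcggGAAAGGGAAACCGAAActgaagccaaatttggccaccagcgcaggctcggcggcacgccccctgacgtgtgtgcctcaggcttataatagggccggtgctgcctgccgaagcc
IFIT3: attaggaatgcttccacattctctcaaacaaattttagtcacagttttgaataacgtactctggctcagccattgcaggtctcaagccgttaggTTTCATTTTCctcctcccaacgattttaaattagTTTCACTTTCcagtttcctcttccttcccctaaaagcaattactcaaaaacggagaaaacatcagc
IFIT1: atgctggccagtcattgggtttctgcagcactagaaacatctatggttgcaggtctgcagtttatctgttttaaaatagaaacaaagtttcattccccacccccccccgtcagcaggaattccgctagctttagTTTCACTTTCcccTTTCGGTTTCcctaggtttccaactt
IRF1: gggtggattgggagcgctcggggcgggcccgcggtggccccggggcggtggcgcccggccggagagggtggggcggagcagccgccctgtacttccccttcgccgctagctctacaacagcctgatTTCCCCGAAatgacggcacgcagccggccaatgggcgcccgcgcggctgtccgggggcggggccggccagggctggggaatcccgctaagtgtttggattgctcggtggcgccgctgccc
In ISG15 the 2 matches overlap and begin 113 and 107 bases before the start. In IFIT3 they begin 156 and 122 bases before it, and in IFIT1 116 and 103 bases before it, each on the strand opposite to the gene. The GAS match of IRF1 begins 124 bases before the start.

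Short sites are shown where the match lies in or next to an untranslated exon. They are the ISRE core that begins at base 12 of the transcript from the upstream MX1 start (chr21:41420569-41420578), the GAS 63 bases before the IRF9 start (chr14:24161202-24161210), the GAS 168 bases before the OAS1 start (chr12:112906794-112906802), and 1 ISRE core 51 bases before the second IFIT3 start (chr10:89332478-89332487). All are printed along the plus strand, the strand of these genes. The IFIT3 core lies on the strand opposite to the gene.
MX1: gcagaaatGAAACCGAAActgaattg
IRF9: cacgtgatTTCTGGGAAaaggccct
OAS1: gagcagagTTCAGAGAAaggctggg
IFIT3, second start: tccatcagTTTCACTTTCctttcccc
STAT2 held neither motif in its window. Base composition divided the set, from 40.3% G+C at the second IFIT3 start to 73.7% at IRF1. A peak covered 8 of the 11 windows in all 6 libraries, the OAS1 window in 5 libraries, and neither of the other two MX1 windows in any. In 1000-base windows around the summits of the intervals tested below, 8 of 29 in the neighbourhoods held an ISRE core, against 17.7% of the intervals tested on chromosomes, which is a description of these windows only.

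The WT peak lists held between 86163 and 93567 peaks and those of CREBBP-KO between 99008 and 111697. They hold no reads, so that read depth was not known. Each peak carries a fold enrichment at its summit over the local background, and its percentile is its place among all folds of the same list. The lists also differed in where a given fold stood: a fold of 5 lay between percentiles 57.0 and 58.4 in the WT lists and between 60.6 and 63.5 in the others, whereas a fold of 20 lay at 97.7 to 98.2 and at 96.4 to 97.4. Groups were therefore tested on ranks over a common set. Each of 34864 intervals that had a peak in every library and a fold of at least 5 in all 3 libraries of a genotype was ranked in each library, the ranks were turned into normal scores, where 1 unit is 1 standard deviation over all intervals, and limma compared the genotypes with Benjamini-Hochberg adjustment. A shift is the mean score in CREBBP-KO minus that in WT, so that it is relative to all other intervals. Of the colonic epithelial markers read at their promoters, 3 of 14 (EPCAM, KRT8 and MUC2) had a peak in all 6 libraries and 10, among them CDH1, CDX2 and VIL1, in none, whereas 7 of 7 fibroblast or mesenchymal markers had one in all 6. Of the immune markers, CD14 and CD68 had one in all 6, and PTPRC had none. Whether such differences from the labelled cell type had a part in the results was not tested. The CREBBP promoter kept its mark in every CREBBP-KO library, at folds of 24.1, 25.9 and 28.9 against 18.0, 21.0 and 16.1 in WT, which does not check the label, since a frameshift leaves a promoter in place.

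Around the 9 genes, acetylation moved in both directions and about as often as elsewhere. Of the 54 intervals, 34 had a peak in all 6 libraries and 29 of these passed the fold filter and were tested. In CREBBP-KO, 6 of the 29 ranked higher (20.7%, against 18.6% of all intervals tested) and 7 ranked lower (24.1%, against 18.7%), and 16 did not pass the threshold. In a population of cells, fewer cells with the mark and less of it per cell cannot be told apart. Both shares are near the background and are no result about these genes as a set. Ranked by the −log10 p of the peaks in place of fold, 1 interval ranked higher and 5 lower, where 25.3% of all intervals and 20.7% of the 29 were called. The median shift was 0.10 in the neighbourhoods and 0.02 over all intervals. By list percentile alone, 10 of the 29 were higher in CREBBP-KO without overlap of the groups (background 34.2%) and 6 were lower (background 15.2%). Of the 5 intervals that had a peak in every library but missed the fold filter, 4 overlapped between groups in list percentile, and the fifth is described with ISG15. Among the others left out of the test, 11 were seen in 1 library only and 9 in 2 to 5 libraries. None was private to CREBBP-KO in all its libraries, and 1, inside the PSME2 gene upstream of IRF9, had a peak in every WT library at folds of 3.37, 3.18 and 3.14 and in no CREBBP-KO library.

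**Figure D1:**
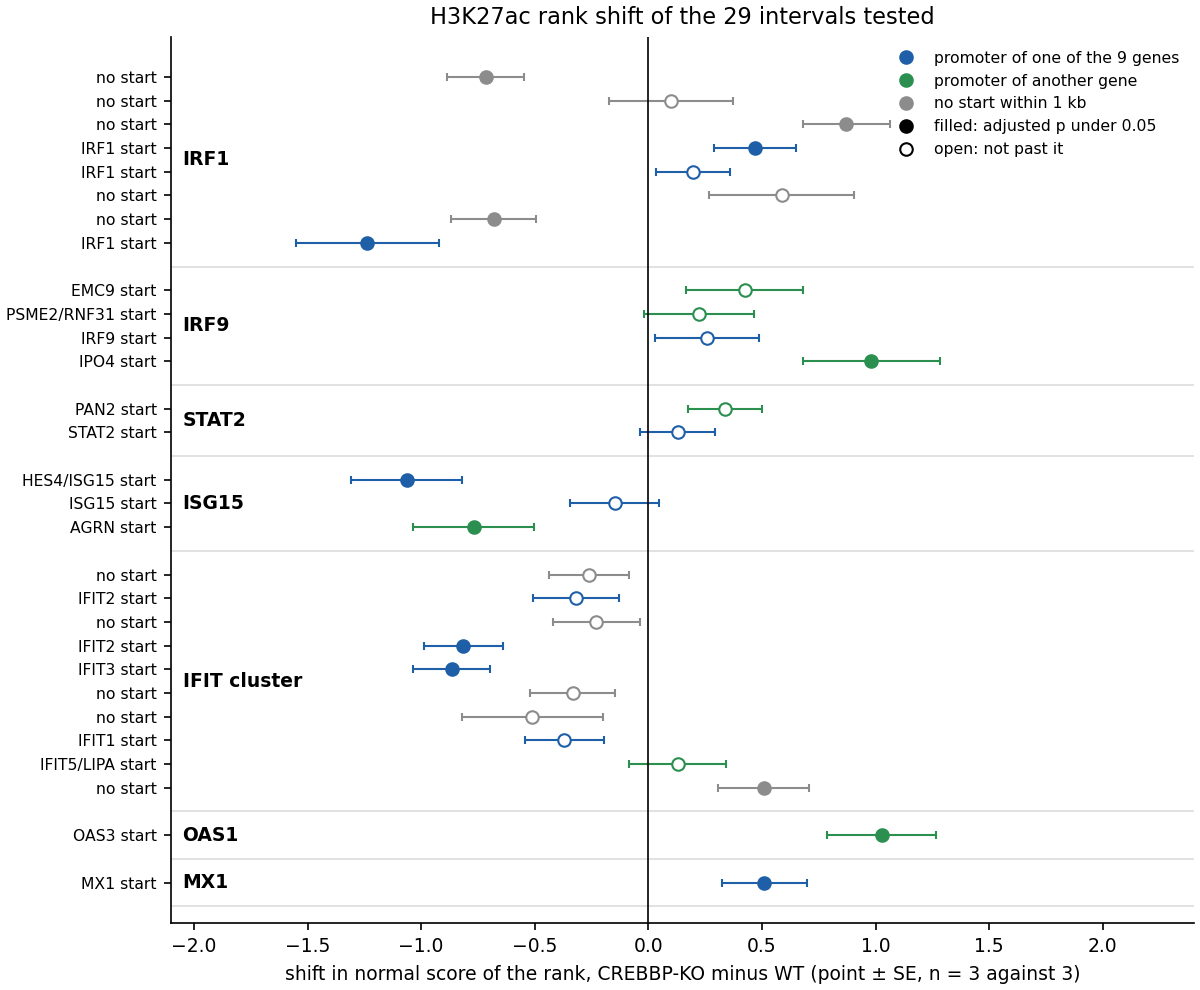
Rank shift between CREBBP-KO and WT (x axis, normal score units, point ± SE, n = 3 against 3) of the 29 intervals tested, grouped by gene neighbourhood and ordered by position. Filled points passed an adjusted p of 0.05, of which 6 lie to the right of 0 and 7 to the left.

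At promoters, the 9 genes spanned much of the list. The highest promoter peak, within 1 kb of any annotated coding transcript start, had a mean WT percentile of 99.6 ± 0.165 (SD, n = 3) at IFIT3 and 98.0 ± 1.34 at IFIT2, and 58.7 ± 3.38 at OAS1. The order in WT was IFIT3, IFIT2, STAT2 (91.0), IFIT1 (89.7), IRF1 (89.2), ISG15 (84.7), MX1 (83.6), IRF9 (74.1) and OAS1. STAT2, IFIT1 and IRF1 overlapped in their single libraries, as did ISG15 and MX1. Over the 12147 protein-coding genes with a promoter peak in all 6 libraries, which were 61.7% of 19689, the median was 87.4 in WT and 91.2 in CREBBP-KO, a median difference of 3.26.

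In CREBBP-KO the promoter percentile was 8.23 points higher at MX1, 7.12 at IRF9, 3.80 at IRF1 and 2.45 at STAT2. The difference was -4.56 points at IFIT2, -2.97 at IFIT1, -2.00 at IFIT3 and -1.84 at ISG15. For ISG15 the highest peak lay at an upstream annotated start in WT replicate 3 and at the reference promoter in the other libraries. At the reference promoter alone the difference was 0.33 points. The 3 libraries of each genotype did not overlap at MX1, IRF9, IRF1, IFIT2, IFIT1 and IFIT3, where the 2-sided exact permutation test gave its smallest possible p with 3 against 3, 0.1 (0.133 after adjustment over the 8 genes). STAT2 (exact p = 0.2, adjusted 0.229) and ISG15 (exact p = 0.3, adjusted 0.3) overlapped. In that design no gene could reach 0.05. Over all intervals tested, list percentiles were higher in CREBBP-KO without overlap at 34.2% and lower at 15.2%. The share of all promoters without overlap was not counted, so that the separation is no result about these genes. Since 76.0% of the 12147 genes had a higher mean percentile in CREBBP-KO, the difference at IRF1 lay near the middle of all genes, with 53.6% of them below it, and that at MX1 had 75.7% below it. The difference at IFIT2 had 5.11% of genes below it and that at IFIT1 8.73%. In the rank test the highest promoter interval was tested for 8 of the 9 genes, and 1 ranked higher (MX1) and 2 lower (IFIT2 and IFIT3), where 26.7% and 8.4% of the promoter intervals of 11708 protein-coding genes did.

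**Figure D2:**
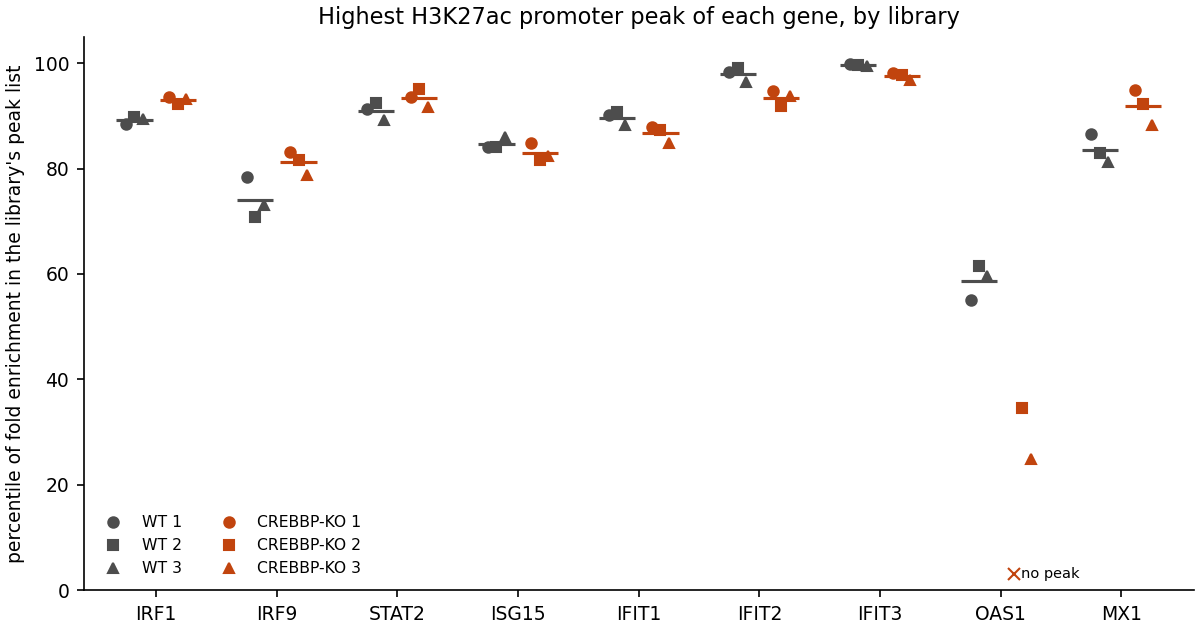
Percentile (y axis, 0 to 100, within the library's own peak list) of the highest H3K27ac promoter peak of each gene in each of 3 WT and 3 CREBBP-KO libraries, with group means as bars. The IFIT genes sit lower in CREBBP-KO and IRF1, IRF9 and MX1 higher, while OAS1 lacks a peak in CREBBP-KO replicate 1, marked by a cross.

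IRF1, an interferon-induced activator of immune genes, had the most varied surroundings, with 16 intervals of which 8 were tested. The peak over its reference start (chr5:132489218-132491814) had folds of 9.49, 9.01 and 10.7 in WT and 13.0, 14.8 and 13.4 in CREBBP-KO. All CREBBP-KO values were above all WT values, and the shift was 0.47 ± 0.18 (SE, limma adjusted p = 0.0451). This call was lost in 10 of 15 alternatives, among them leaving out any one library other than WT replicate 3, with an adjusted p of up to 0.273. The neighbouring interval over upstream IRF1 starts (chr5:132494056-132499411) was the higher of the pair, at 11.8, 12.2 and 12.5 in WT and 15.0, 14.2 and 16.2 in CREBBP-KO. Its folds did not overlap either, but its shift of 0.20 ± 0.16 did not pass (adjusted p = 0.358).

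Away from the IRF1 start the changes went both ways. An interval 32.7 kb downstream of the start, in the annotated gene body, rose from folds of 11.0, 10.5 and 7.75 to 14.4, 18.0 and 19.6 (shift 0.87 ± 0.19, adjusted p = 0.00148). Another, 64.4 kb downstream and beyond the gene body, was among the strongest peaks of the WT lists at 24.8, 24.3 and 23.6, and was lower at 22.0, 18.7 and 19.6 in CREBBP-KO (shift -0.72 ± 0.17, adjusted p = 0.00232, and 0.0921 when ranked by −log10 p). Upstream, at 15.2 kb from the start, folds of 16.6, 17.6 and 13.1 stood against 11.3, 11.0 and 14.5, so that the groups overlapped in fold while the rank fell by 0.68 (SE 0.19, adjusted p = 0.00698). The interval that reached within 1 kb of the farthest annotated IRF1 start had its middle 19.8 kb upstream. Its folds were 9.75, 12.1 and 6.54 in WT and 6.39, 5.92 and 4.44 in CREBBP-KO. These did not overlap, and it had the largest fall among the 29 (shift -1.24 ± 0.32, adjusted p = 0.00426). It passed the fold filter only through its WT libraries, and without that filter the shift was -0.83 (adjusted p = 0.00801). The intervals 52.6 kb downstream and 10.6 kb upstream did not pass, with shifts of 0.10 and 0.59. Among the intervals that passed, the reference promoter and the one 32.7 kb downstream thus ranked higher. Those 64.4 kb downstream and 15.2 and 19.8 kb upstream ranked lower, of which the one at 15.2 kb also lay in the annotated gene body. The call at the reference promoter was lost in 10 of 15 alternatives, as given above.

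**Figure D3:**
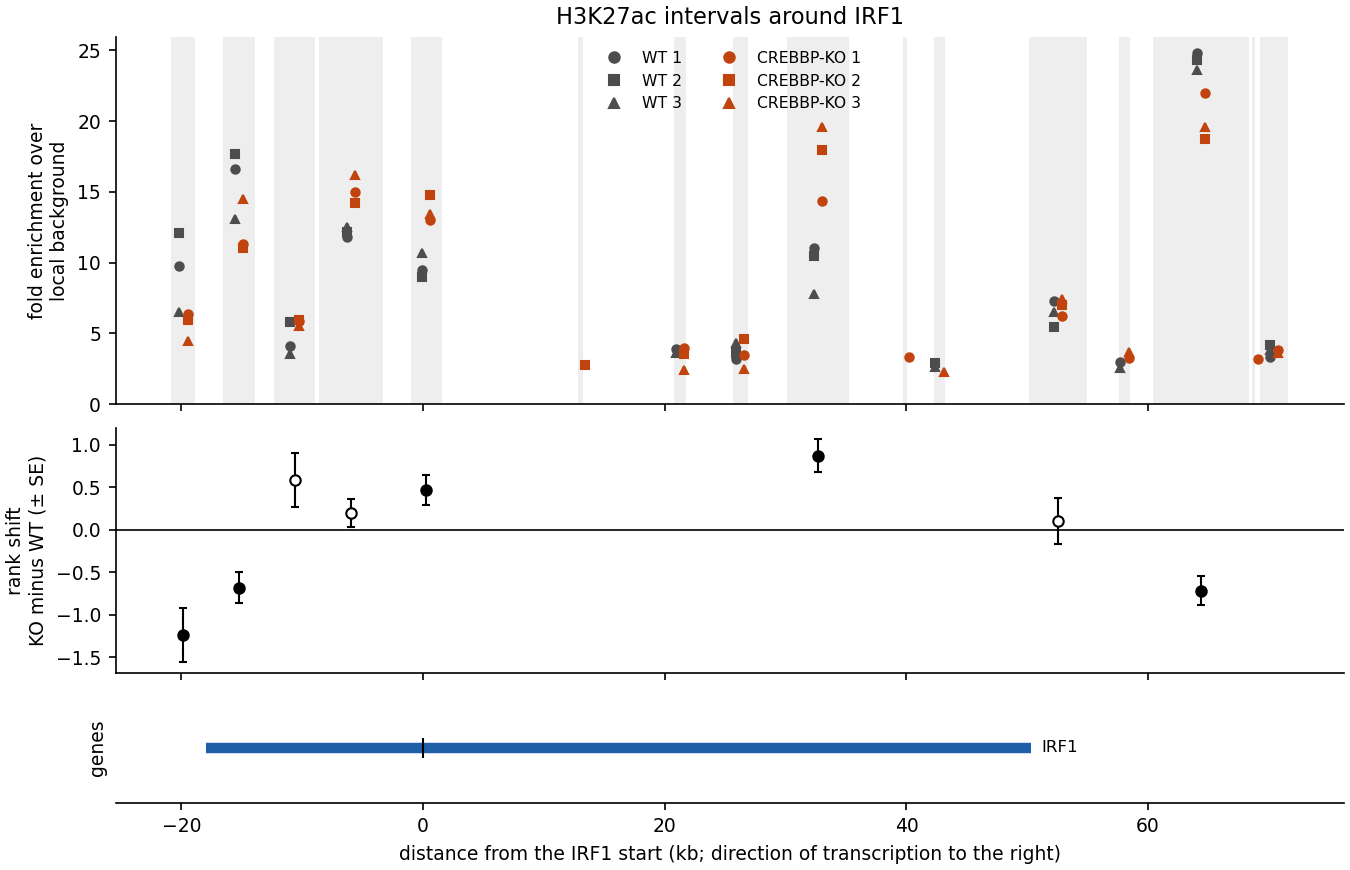
H3K27ac around IRF1 by distance from its reference start (x axis, kb), with the fold enrichment in each library (top, grey bands are merged intervals), the rank shift ± SE (middle, filled where the adjusted p was under 0.05) and the annotated gene body (bottom). The intervals at 0.3 and 32.7 kb shifted up, and those at -19.8, -15.2 and 64.4 kb shifted down.

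IRF9, the DNA-binding subunit of ISGF3, had a moderate promoter peak (chr14:24160566-24163027), with folds of 8.32, 6.69 and 7.34 in WT and 8.96, 9.10 and 8.53 in CREBBP-KO. The groups did not overlap in fold, yet the rank shift of 0.26 ± 0.23 did not pass (adjusted p = 0.386). The only interval near IRF9 that did was the promoter of IPO4, a nuclear import receptor, 27.2 kb downstream, at 6.05, 4.34 and 4.23 in WT and 8.30, 7.75 and 6.58 in CREBBP-KO (shift 0.98 ± 0.30, adjusted p = 0.0136). Without CREBBP-KO replicate 1, and when ranked by −log10 p, that call was lost. The IPO4 interval passed the fold filter only through its CREBBP-KO libraries, and without that filter its shift was 0.68 (adjusted p = 0.0261). The shared PSME2 and RNF31 promoter and the EMC9 promoter had shifts of 0.22 and 0.42 and did not pass.

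STAT2, which carries the transactivation domain of ISGF3, had a strong promoter peak (chr12:56356340-56361510) with little difference between genotypes. Its folds were 13.3, 13.6 and 12.5 in WT and 15.0, 17.6 and 14.9 in CREBBP-KO, and its shift was 0.13 ± 0.16 (adjusted p = 0.559). The nearby promoter of PAN2, a deadenylase subunit, had 13.6, 12.7 and 12.4 against 18.2, 18.0 and 16.0, a shift of 0.34 that did not pass (adjusted p = 0.107). At both ISGF3 genes the folds were thus higher in CREBBP-KO in all 3 libraries, while the rank test did not pass.

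ISG15 encodes a ubiquitin-like protein that is attached to other proteins in infected cells. Its reference promoter (chr1:1012621-1015347) had folds of 10.1, 9.95 and 8.87 in WT and 9.62, 9.08 and 9.77 in CREBBP-KO. The groups overlapped and the shift was -0.15 ± 0.20 (adjusted p = 0.576). Of the 3 flanking intervals seen in every library, 2 were tested and both ranked lower. An upstream annotated ISG15 start, which lies in the promoter of HES4, a Notch-pathway repressor (chr1:999413-1001856), had 8.89, 9.51 and 11.0 in WT and 5.70, 6.97 and 5.96 in CREBBP-KO, a fall of 1.06 in rank score (shift -1.06 ± 0.24, adjusted p = 0.0019). The AGRN promoter 7.5 kb downstream, whose product agrin is a matrix proteoglycan, had 7.10, 8.15 and 8.55 against 6.15, 5.29 and 6.41 (shift -0.77 ± 0.27, adjusted p = 0.0269). The third, a weak interval inside AGRN 11.4 kb downstream (chr1:1024167-1025542), was left out by the fold filter, at 2.97, 2.66 and 2.97 in WT and 3.75, 3.43 and 2.90 in CREBBP-KO. These folds overlapped, while its list percentiles were higher in all 3 CREBBP-KO libraries. The call at the AGRN promoter was lost in 5 of 13 alternatives, among them without WT replicate 2, WT replicate 3 or CREBBP-KO replicate 2, with an adjusted p of up to 0.113.

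IFIT1, IFIT2 and IFIT3 encode tetratricopeptide proteins that bind viral RNA or block its translation, and lie side by side on chromosome 10. The 155.7 kb they span with their intervals held 20 intervals, 12 of them in all 6 libraries. It held the highest fold of the 9 neighbourhoods, 30.7, and 4 intervals at or above percentile 90 in every library. Of the 10 intervals tested, 8 had a shift below 0, but only 2 of these passed, and both were promoters, while 1 of the 10 ranked higher. Over all intervals tested, 18.7% ranked lower and 18.6% higher, so that these calls are no result about the cluster as a whole. The share of all intervals with a shift below 0 was not counted. A shift below 0 was not always a lower fold. The strong intervals in LIPA and 25.6 kb from the IFIT3 start had fold ratios of 1.02 and 1.01, CREBBP-KO over WT.

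The IFIT3 promoter interval (chr10:89325841-89334588), which covers both printed IFIT3 starts, had highest folds of 30.7, 26.1 and 25.8 in WT and 21.6, 22.3 and 20.8 in CREBBP-KO. All WT values were above all CREBBP-KO values, and the shift was -0.87 ± 0.17 (adjusted p = 0.000532, and 0.0674 when ranked by −log10 p). These values had their summits near the first printed start. Peaks over the window of the second start had folds of 11.9, 26.1 and 12 in WT and 10.2, 15.1 and 14.1 in CREBBP-KO, which overlapped. In WT replicate 2 a single peak covered both starts. The IFIT2 reference promoter (chr10:89300609-89303663) was lower in CREBBP-KO, at 21.4, 22.8 and 18.0 in WT and 16.0, 14.5 and 16.8 in CREBBP-KO (shift -0.81 ± 0.17, adjusted p = 0.0011). IFIT2 has a first annotated start farther upstream, whose interval had 11.6, 10.7 and 10.7 against 10.0, 11.1 and 8.91 and did not pass (shift -0.32, adjusted p = 0.192).

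The IFIT1 promoter interval (chr10:89391539-89400299) had highest folds of 12.7, 14.3 and 11.9 in WT and 11.1, 11.6 and 12.3 in CREBBP-KO. These overlapped, and the shift of -0.37 ± 0.17 did not pass (adjusted p = 0.0976). The values of WT replicate 2 and CREBBP-KO replicate 3 came from a separate peak, with summits at chr10:89398505 and chr10:89398508. The rank test thus did not compare the same peak in every library. Within 1 kb of the starts, folds were 12.7, 12.6 and 11.9 in WT and 11.1, 11.6 and 10.8 in CREBBP-KO, without overlap. The remaining strong intervals differed little. One inside IFIT3, 25.6 kb from its start, had 21.0, 27 and 24.4 against 23.3, 25.5 and 23.7 (shift -0.33, adjusted p = 0.161). Another in the LIPA gene, which overlaps the cluster, had 25.2, 20.0 and 22.3 against 25.1, 20.6 and 23.4 (shift -0.26). The intervals 6.0 kb upstream of the IFIT2 start and 18.1 kb upstream of the IFIT1 start had shifts of -0.23 and -0.51 and did not pass (adjusted p = 0.359 and 0.2). At the far end of the cluster the sign turned. The shared IFIT5 and LIPA promoter had a shift of 0.13, and the intergenic interval beyond it (chr10:89425944-89430071) had 8.03, 8.43 and 10.8 in WT and 13.5, 13.1 and 12.2 in CREBBP-KO. That interval only just passed (shift 0.51 ± 0.20, adjusted p = 0.0493) and the call was lost in 13 of 15 alternatives, among them leaving out any one library other than WT replicate 3, with an adjusted p of up to 0.491.

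**Figure D4:**
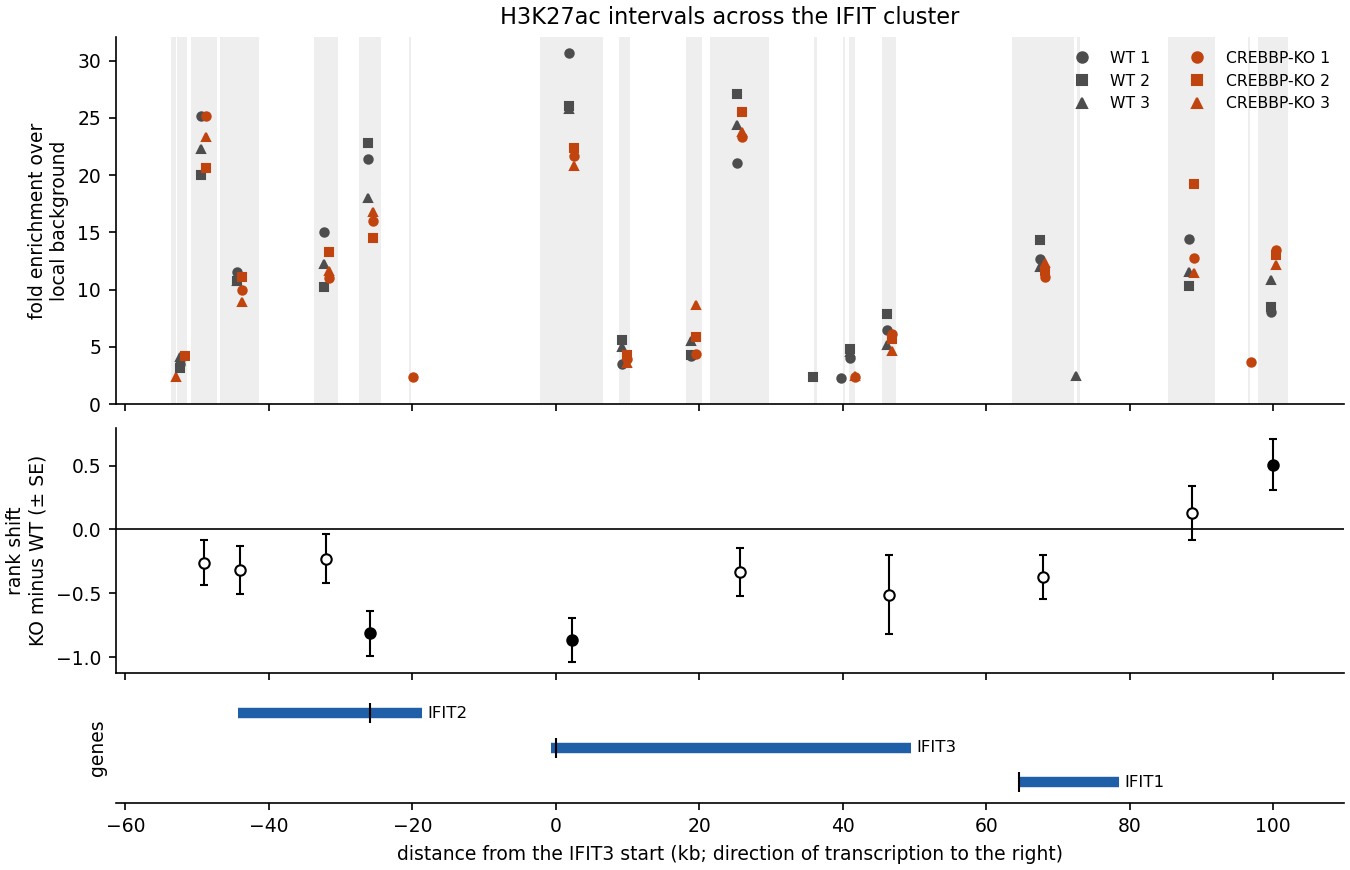
H3K27ac across IFIT2, IFIT3 and IFIT1 by distance from the IFIT3 reference start (x axis, kb), with the fold enrichment in each library (top, grey bands are merged intervals), the rank shift ± SE (middle, filled where the adjusted p was under 0.05) and the gene bodies with their reference starts as ticks (bottom). The IFIT2 and IFIT3 promoters are the 2 filled points below 0, and the interval past the cluster's far end is the filled point above it.

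OAS1, a synthetase of the oligoadenylates that activate RNase L, had the weakest promoter (chr12:112906445-112907630). Its folds were 4.66, 5.34 and 5.31 in WT and 3.43 and 3.07 in CREBBP-KO replicates 2 and 3, with no peak called in CREBBP-KO replicate 1. Every value of CREBBP-KO was below every WT value. The interval had no peak in 1 library and was not tested, and a peak just under the caller's threshold is not listed, so that its level in that library is unknown. The other interval near OAS1 was the promoter of OAS3, which makes longer oligoadenylates (chr12:112937918-112939500). It rose from 6.03, 6.04 and 6.25 to 11.8, 8.62 and 12.2 (shift 1.03 ± 0.24, adjusted p = 0.0023, and 0.0755 when ranked by −log10 p). Among the 29 it had the largest rise.

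MX1, a dynamin-like GTPase that traps viral nucleocapsids, had 1 interval in its whole neighbourhood. It lay at the upstream start (chr21:41419915-41421879), which holds the ISRE core shown above, while no library had a peak within 1 kb of the reference start 5.3 kb from its middle. The folds were 11.0, 9.56 and 9.37 in WT and 16.4, 14.8 and 12.6 in CREBBP-KO. These did not overlap, and the shift was 0.51 ± 0.19 (adjusted p = 0.0351). That call was lost in 6 of 15 alternatives, among them without WT replicate 2 or 3 or CREBBP-KO replicate 1 or 2, with an adjusted p of up to 0.229.

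The number of peaks in the neighbourhoods was 48, 44 and 49 in WT and 56, 49 and 50 in CREBBP-KO. Both groups held a library with 49, and the difference of 4.67 peaks did not pass (2-sided exact permutation test, p = 0.2, where 0.1 is the smallest possible). It was 0 when only peaks with a fold of at least 5 were counted or when the lists were cut to the same length. The whole CREBBP-KO lists were longer too, as given above.

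In the wider interferon pathway, 81 further genes from ligand to effector were read at their promoters. A promoter peak was present in all 6 libraries at 61 of them. A tested promoter interval was found for 61 too, though not for the same genes. OAS2 had a peak in all 6 libraries and was not tested. XAF1 was tested, though a peak reached its promoter in only 2 libraries of each genotype. Of the 61 tested, 14 ranked higher in CREBBP-KO (22.95%, against 26.7% of promoter intervals of protein-coding genes), 5 ranked lower (8.20%, against 8.4%) and 42 did not pass. These shares are near those of all promoters, and neighbouring genes such as PARP9 and DTX3L share an interval. Ranked by −log10 p, 4 of the 61 were higher and 6 lower, and 11.7% and 5.94% of all promoter intervals were. The median shift was 0.16, and it was 0.21 over all promoter intervals of protein-coding genes. No promoter peak was seen in any library at 12 genes, which were the ligands IFNB1, IFNK, IFNL1, IFNL2 and IFNL3, the transcription factor IRF8, the nucleic acid sensor ZBP1, and the effectors MX2, IFI27, IFIT1B, RSAD2 and CMPK2.

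Of the receptors, 4 of 5 tested ranked higher (80%, against 26.7% of promoter intervals of protein-coding genes), and these were named after their values were seen: IFNAR1, IFNAR2, IFNGR1 and IFNGR2, with shifts of 0.64, 0.83, 0.54 and 0.60. IL10RB was the fifth. The intervals of IFNAR2, IL10RB, IFNAR1 and IFNGR2 lie close together (chr21:33229591-33404914), so that these calls may not be independent. The IFNAR2 call held under all 15 alternatives, whereas those of IFNAR1, IFNGR1 and IFNGR2 were each lost in 3 or 4. Ranking by −log10 p gave IFNAR1 and IFNGR1 their highest adjusted p, 0.119 and 0.639. The IFNGR1 call was also lost with limma without trend. Each of the calls of IFNAR1, IFNGR1 and IFNGR2 was lost without WT replicate 2, where IFNGR2 had its highest adjusted p, 0.0964. Those of IFNAR1 and IFNGR2 were lost without CREBBP-KO replicate 1, and those of IFNGR1 and IFNGR2 without CREBBP-KO replicate 2. The largest rise in the list was at TYK2, the kinase bound to IFNAR1, with folds of 6.18, 6.88 and 5.96 in WT and 14.0, 11.0 and 12.8 in CREBBP-KO (shift 1.20 ± 0.22, adjusted p = 0.000317). It was followed by DHX58, an RNA helicase that tunes RIG-I signalling (shift 1.14 ± 0.30), by OAS3, described above, by SAMHD1, a dNTP hydrolase that restricts retroviruses (0.98 ± 0.29), and by IFITM1 and IFITM2, membrane proteins that block viral entry and share 1 interval (0.88 ± 0.18). The SAMHD1 call was lost without WT replicate 2 or CREBBP-KO replicate 2 or 3 (adjusted p of up to 0.0552), and those of DHX58, IFITM1 and IFITM2 when ranked by −log10 p. Promoter folds below 5 occurred in WT at DHX58 (3.75 and 4.11) and SAMHD1 (4.38), while all their CREBBP-KO folds were above 5. Without the fold filter their shifts were 0.83 and 0.65 (adjusted p = 0.0128 and 0.0237). With windows around the summits in place of merged intervals, IFITM1 and IFITM2 were read separately, and the shift of IFITM1 turned to -0.18 (adjusted p = 0.613) while that of IFITM2 was 0.85 (adjusted p = 0.000515).

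The 5 promoters that fell were 1 sensor and 4 effectors. GBP2 and GBP3, interferon-induced GTPases, had shifts of -1.08 ± 0.24 and -1.05 ± 0.19. IFI44L had folds of 19.8, 17.2 and 16.8 in WT and 10.1, 13.8 and 11.0 in CREBBP-KO (shift -1.03 ± 0.17, adjusted p = 0.000142). TLR3, the endosomal receptor of double-stranded RNA, had a shift of -0.91 ± 0.22 and the exonuclease ISG20 one of -0.80 ± 0.21. These 5 calls and that of TYK2 held under each of the 14 or 15 alternatives that tested them, including the ranking by −log10 p.

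**Figure D5:**
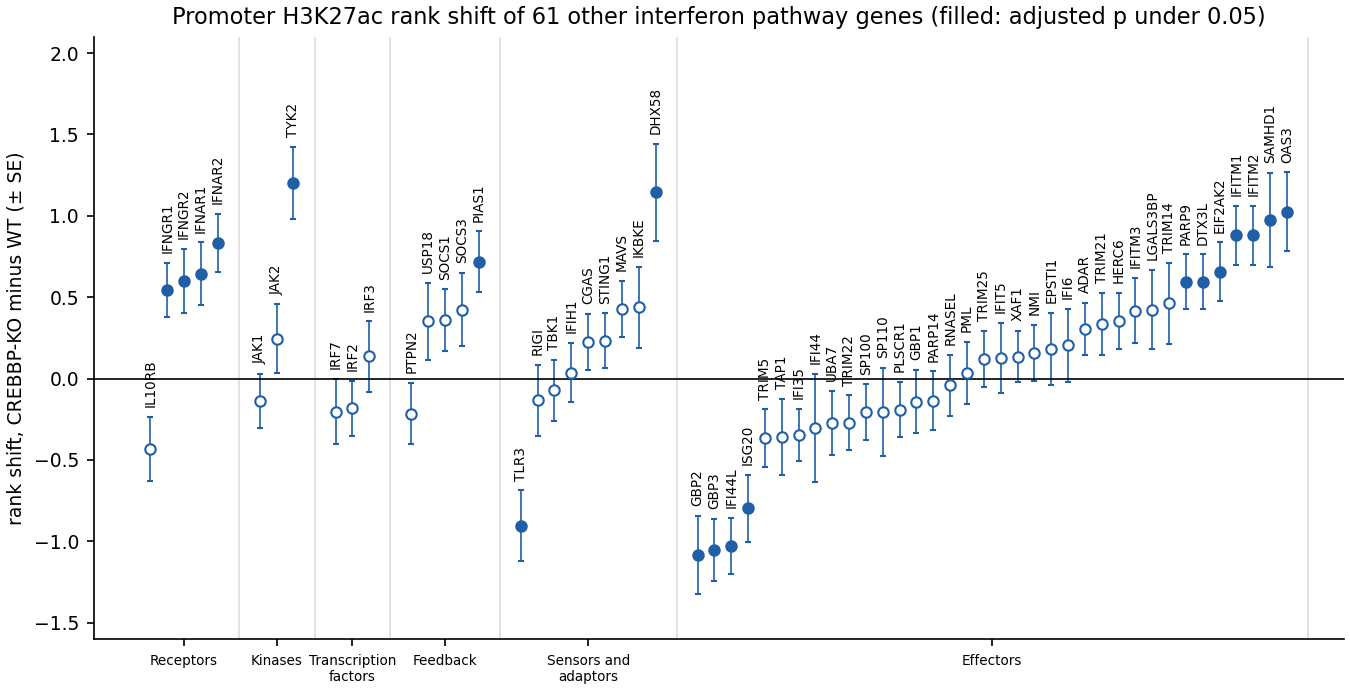
Promoter rank shift ± SE (y axis, CREBBP-KO minus WT, n = 3 against 3) of the 61 tested pathway genes, grouped by role and ordered by shift within a role. Filled points passed an adjusted p of 0.05, 14 above 0 and 5 below, and 4 of the 5 receptors are filled and above 0. Of the promoter intervals of all protein-coding genes, 26.7% ranked higher and 8.4% lower.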

How the data were processed

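H3K27ac ChIP-seq peak lists of 3 WT and 3 CREBBP-KO HCEC-1CT libraries were used. The input libraries, 1 per genotype, were not analysed here. Per the study's methods, reads went through the nf-core ChIP-seq pipeline with MACS2 narrow peaks on hg38, and the submitters' processing notes name BWA. Whether these lists preceded the described downsampling of reads, and which input served as control, was not given in the sources used here. The files deposited by the authors give, per peak and library without pooling, the fold enrichment (a ratio) at the summit, −log10 p-values and −log10 q-values, with q under 0.05, and the summit offset. A peak that narrowly missed the caller's threshold is absent rather than low.

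Peaks that overlapped by at least 1 base were merged across libraries, and the highest fold per library was kept. Intervals with a fold of at least 5 in all 3 libraries of a genotype, the study's filter, and a peak in all 6 were ranked. Normal scores of the ranks were compared with limma 3.58.1 (R 4.3.3, eBayes with trend, genotype only) over all 34864 intervals, with Benjamini-Hochberg adjustment and a threshold of 0.05, after tests on simulated data. The study's own differential peaks came from a different test (DiffBind), with a log2 fold change of at least 1 and an FDR under 0.0001. In the rank test, 0 intervals near the 9 genes had an adjusted p under 0.0001. Percentiles and peak numbers were compared by 2-sided exact permutation tests (Python 3.11.15, scipy 1.17.1). The p-values measure the spread between 3 libraries per genotype, which may be technical. Promoters were 1 kb either side of GENCODE 44 coding transcript starts. All peaks lay within the chromosome lengths of the hg38 sequence, and the 11 RefSeq windows equalled it base by base. The 9 genes were named with the intervals of their neighbourhoods, of which weak ones not tested are mostly given by count. Of the pathway list, up to 6 genes per direction with the largest shift were named, with those lacking any promoter peak. Of the pathway and marker lists, 1 gene each is not reported here. The members and lists were chosen with earlier results of these data known. Alternatives changed the fold or q filter, the ranking measure, the trend, the interval or window size, the list length and the libraries.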

Additional observations from a re-analysis of the deposited data

How the results depend on the processing

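The 7 lower calls in the neighbourhoods stayed within 1.5 times that number under the alternatives tried (5 to 8), as did the 5 lower pathway calls (4 to 6). The 6 higher calls of 29 intervals tested became 3 of 17 with a fold filter of 10 and 11 of 44 with 50 kb either side. In these 2 settings the number tested changed too. The higher calls became 1 of 29 when ranked by −log10 p and 3 of 29 with limma without trend. With 1 library left out they were 2 to 5 of 29 or 30 (2 without CREBBP-KO replicate 1, 3 without CREBBP-KO replicate 2). In both directions together, 44.8% of the 29 were called, against 37.3% of all intervals. With the fold filter of 10, 47.1% of the 17 were, against 43.9% of all. The 14 higher pathway calls became 4 when ranked by −log10 p. The difference of 4.67 peaks became 0 with a fold of at least 5, 0 with lists of the same length and -1.67 with a −log10 q of at least 5. The median of the 8 promoter percentile differences, 0.308, became -1.56 with promoters of 2000 bases either side. For single genes, ranking by −log10 p turned the difference at IFIT1 to 0.816 and that at IRF1 to -0.448, and promoters of 2000 bases turned that at IRF1 to -1.27. The causes were not tested. Same-numbered libraries share only a number, since the correlations of their deviations were 0.0108, 0.0144 and 0.0284. A replicate block gave 4 higher and 7 lower calls in the neighbourhoods and 14 and 5 in the pathway.

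Peak lists without reads limit every statement to ranks. A global change of H3K27ac cannot be seen in ranks, a peak below the threshold has no value, and 3 libraries per genotype limit the precision. The number of CREBBP-KO clones behind the libraries is unknown.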
